A study of Mus musculus with 12 samples.

Results

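The clustered replication-dependent histone genes were followed in polyA-enriched RNA from mouse embryonic stem cells (ESCs). They were the rows of the deposited expression table whose symbol places them in the Hist1, Hist2, Hist3 or Hist4 cluster as an H1, H2A, H2B, H3 or H4 gene, without symbols marked as pseudogenes, and with a value above 0 in at least 4 of 6 libraries. Of 50978 rows, 69 carried such a symbol and 41 met the value rule: 5 H1, 4 H2A, 14 H2B, 7 H3 and 11 H4 genes. Of these 41, 36 lay in the Hist1 cluster on chromosome 13, 2 in Hist2, 2 in Hist3, and the last was Hist4h4. Of the 28 other rows, 2 (Hist1h2aj and Hist1h2al) are annotated as pseudogenes despite their symbols, and all 41 members are annotated as protein-coding. The value rule itself fixes that these genes were detected, so detection is not a result.

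The study asked how PRAMEL7, a leucine-rich repeat protein that binds the ubiquitin ligase scaffold CUL2, changes gene expression in ESCs, and whether its N-terminus is needed. RNA-seq was made from 3 lines, each with 2 libraries that the labels trace to independent dishes (the study's methods speak of 3 collections): parental E14 ESCs, ESC + H/F-PRAMEL7 WT and ESC + H/F-PRAMEL7 ΔN. All were grown in medium with 15% serum and LIF. The derived lines carried an HA/FLAG-tagged Pramel7 inserted at Rosa26 under the CAG promoter and were isolated as puromycin-resistant single-cell clones; how many clones gave RNA is not stated in the sources used here. The labels give ΔN as a deletion of 50 amino acids from the N-terminus, and the study's text gives a shorter one. The transgene cannot be told apart from what is particular to the clones used, and p-values measure the spread between dishes.

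S phase creates a sudden need for new nucleosomes, and the clustered histone genes supply it: their mRNAs build up as DNA is copied and are degraded when replication ends. They are the main class of metazoan mRNAs that end without a poly(A) tail. Their 3′ end is made by a cut just after a conserved stem-loop, which is bound by SLBP, while a poly(A) signal further downstream can be used instead in differentiated or non-dividing cells. Replacement histones such as H2A.Z and H3.3 come from genes outside the clusters, are made through the cell cycle and have ordinary polyadenylated mRNAs. A library made from polyA-enriched RNA therefore holds only a remainder of the clustered histone mRNA, whose tail status was not measured here. In bulk RNA, fewer cells in S phase and less histone mRNA per cell cannot be told apart.

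The stem-loop was searched in the 150 bases after the stop codon of each gene in GRCm38, as GGNNNNTTNNNNNNNN on the coding strand with all 6 stem pairs formed (a G-T pair was allowed) around a loop of 4 bases. It was found for 61 of the 67 rows with an annotated stop codon (91%) and in 85 of 21793 other protein-coding genes (0.39%). Of the 41 members, 37 had it. No match was found for Hist1h2bp, Hist1h3g, Hist1h4a and Hist2h2be, which says only that these letters were not in the window used. The stretches below show its forms in the 5 members tested below, in the H4 members with most reads and in Hist1h4b. Capitals mark the 16-base stem-loop, and 5 genomic bases stand on each side (RefSeq genome, GRCm38, 5′ to 3′ on the gene's strand).
Hist1h1a (chr13:23764387-23764412, plus strand): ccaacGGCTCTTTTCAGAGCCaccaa
Hist1h1c (chr13:23739507-23739532, plus strand): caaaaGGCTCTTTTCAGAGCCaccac
Hist1h2bc (chr13:23684642-23684667, plus strand): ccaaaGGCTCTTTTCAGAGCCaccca
Hist1h2bj (chr13:22043633-22043658, plus strand): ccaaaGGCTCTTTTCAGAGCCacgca
Hist1h3c (chr13:23745042-23745067, minus strand): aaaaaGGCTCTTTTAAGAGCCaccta
Hist1h4d (chr13:23581945-23581970, plus strand): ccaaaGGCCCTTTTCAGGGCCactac
Hist1h4i (chr13:22040961-22040986, minus strand): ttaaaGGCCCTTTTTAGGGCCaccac
Hist1h4b (chr13:23757361-23757386, plus strand): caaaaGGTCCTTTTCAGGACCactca

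The form in Hist1h1a, Hist1h1c, Hist1h2bc and Hist1h2bj was the commonest, in 38 rows and 22 members of the H1, H2A, H2B and H3 classes. The form in Hist1h3c, with the same stem and another loop, was found in 9 rows of the same 4 classes and in 5 members, all H2B or H3 genes. All 12 H4 matches had another stem: 8 rows the form in Hist1h4d, 2 that in Hist1h4i and 2 that in Hist1h4b. The stem-loop began 21 to 58 bases after the stop codon, with a median of 31. The annotated gene models differed in how far they ran beyond it. In 16 members the model continued over 100 bases past the stem-loop, by 840 genomic bases in Hist1h1c and 8246 in Hist1h2bc, and in 21 it ended sooner, as in Hist1h1a, whose annotation stops 1 base short of the stem-loop's end. Members with long models had a median of 30.5 reads over the 6 libraries and a level of 0.181 library-scaled counts (CPM) per kb of exon. Those with short models had a median of 20 reads and 0.421 CPM per kb, so the order of the 2 groups turned with the scale used. The hexamer AATAAA stood within the last 50 annotated bases of 10 members.

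Very little of each library came from these genes. Whole reads could be recovered from the deposited values, and the 41 genes together held 1954 reads over the 6 libraries, which had 18254341 to 19855520 reads on matched genes. That was 0.00113% to 0.0024% of a library. The median member had 23 reads in all 6 libraries together, and 17 members had 20 or fewer. Hist1h2bc and Hist1h1c, genes for an H2B and for the linker histone H1.2, carried 33.6% of the member reads between them, and the 5 members with most reads carried 49.8%. Per kb of exon, Hist1h2bc (2.55 CPM per kb), Hist1h1c (1.79) and Hist1h1a (1.76) led, with a median of 0.297 over the members and a low of 0.0434 for Hist4h4. By contrast, the 13 replacement histone genes summed to between 1599 and 2053 CPM in a library.

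**Figure D1:**
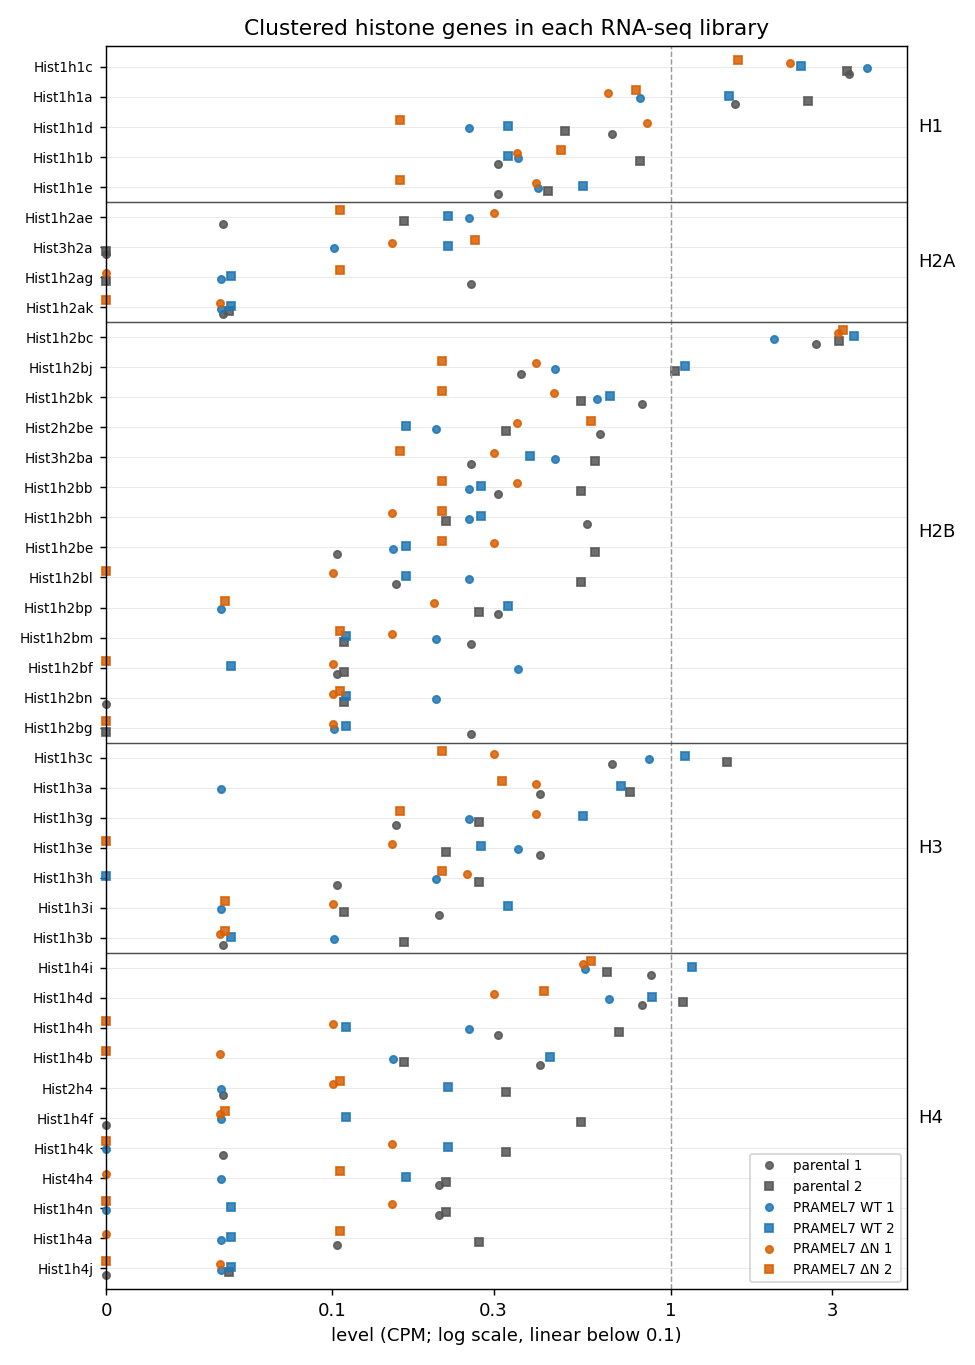
Level of each of the 41 clustered histone genes in CPM (log axis, linear below 0.1) in each of the 6 libraries, grouped by histone class; circles are replicate 1, squares replicate 2, and colours the 3 lines. Only 5 genes passed the dashed line at 1 CPM in at least 2 libraries. Both ΔN points (orange) lie left of both parental points (grey) in 18 of 41 genes (43.9%). Among all genes above 0 in at least 4 libraries, 33.3% do so. When whole reads also had to differ, 13 of the 41 (31.7%) remained, against 27.4% of all such genes.

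Clustered histone genes share sequence between copies, and its part in their read numbers was not tested. For each of the 69 rows, every 100-base window of exon, the read length of the study, was looked up in GRCm38, and the share of windows found at a single place was taken. Members had a median of 69.3% of such windows (8.01% to 100%) and the other 28 rows a median of 37.4% (0% to 100%). H1 genes were the most distinct (median 99.6% over 6 rows) and H2A genes the least (35.5% over 20 rows), and only 4 of the 20 H2A rows were members. All 5 rows without a unique window (Hist1h2ao, Hist1h2ap, Hist1h2bq, Hist1h2br and Hist2h2aa2) had 0 reads. Of the 16 rows with 0 reads, 10 had under 25% unique windows and 5 had over 50%, among them Hist2h2bb and Hist2h2ab. How reads that fit several places were counted is not given in the sources used here, so levels of genes with near-identical copies are uncertain. Of the members named below, Hist1h2bk had 29.2% unique windows, Hist1h2ag 23.6% and Hist1h3h 8.01%, the lowest of all members. Among the members, 7 overlapped exons of another gene, which an unstranded library cannot separate; none of the 5 tested members did. Rows just outside the rule, above 0 in 3 libraries, were Hist1h3d, Hist1h3f and Hist1h4c, and the 28 rows outside held 37 reads in all.

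**Figure D2:**
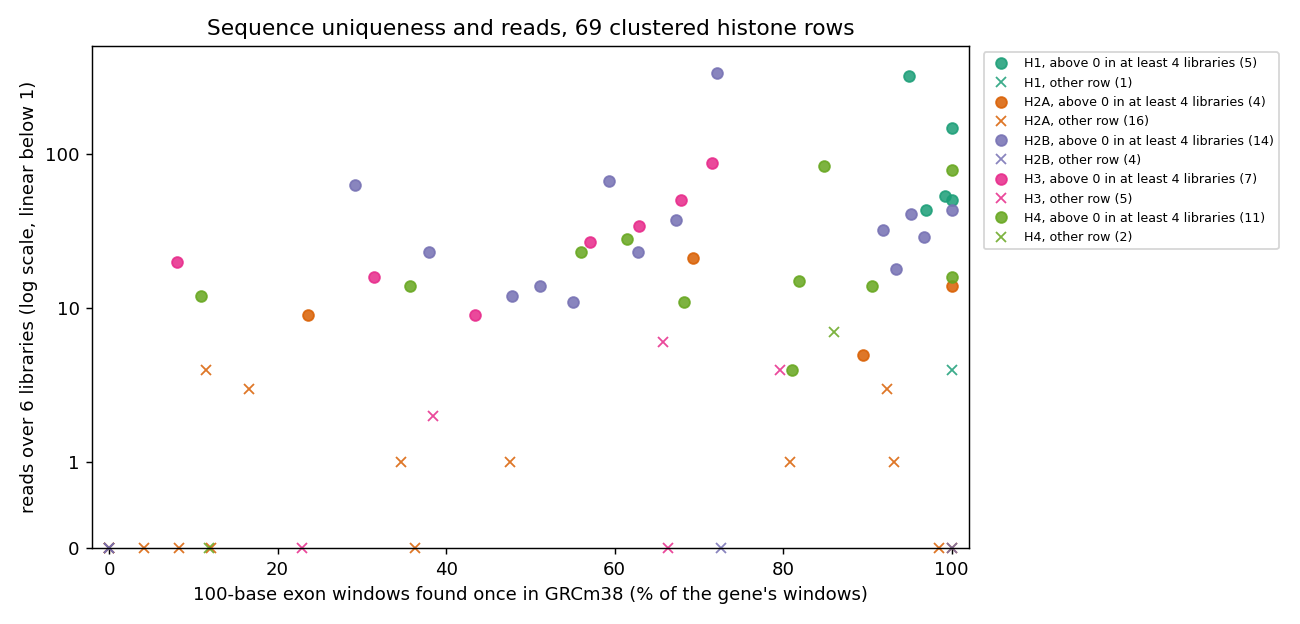
Reads over the 6 libraries (log axis, linear below 1) against the percent of a gene's 100-base exon windows that occur at a single place in GRCm38, for 69 clustered histone rows; circles are the 41 members, crosses the other 28 rows, colours the class. Rows at the left edge, without unique windows, have 0 reads, and H1 genes lie at the right.

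The labels held in the targeted gene. Pramel7 stood at 0.258 and 0.217 CPM in parental ESCs, 51.2 and 46.2 CPM in ESC + H/F-PRAMEL7 WT and 398 and 431 CPM in ESC + H/F-PRAMEL7 ΔN. The ΔN line thus held 8.5 times the transcript of the WT line. Loss of the N-terminus and transgene level therefore cannot be told apart between the derived lines. The 7 ESC markers summed to between 4719 and 5882 CPM, against 22.1 to 56.8 CPM for 5 fibroblast markers, 2.44 to 5.12 CPM for 4 primitive endoderm markers and 161 to 267 CPM for 3 neural markers.

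Taken as a sum, the clustered histone genes stood lowest in ESC + H/F-PRAMEL7 ΔN. The sum was 18.4 and 23.8 CPM in parental ESCs (21.1 ± 3.77, SD, n = 2), 15.4 and 19.5 CPM in ESC + H/F-PRAMEL7 WT (17.5 ± 2.94) and 14.4 and 11.3 CPM in ESC + H/F-PRAMEL7 ΔN (12.8 ± 2.16). Both ΔN libraries lay below both parental and both WT libraries, while WT and parental libraries overlapped. The exact Poisson 95% intervals, which cover counting error only, ran from 12.7 to 16.1 and from 9.84 to 12.9 CPM in the ΔN libraries and from 16.6 to 20.4 and from 21.6 to 26.1 CPM in the parental ones. The first WT library, at 13.7 to 17.2 CPM, overlapped the first ΔN library. The ratio of means was 0.608 for ΔN over parental, 0.828 for WT over parental and 1.36 for WT over ΔN. No test was made of the sum, since 2 libraries stood against 2. Without the 5 members with most reads the sums were 9.29 and 12.6, 7.34 and 9.91, and 7.48 and 4.91 CPM in the same order of lines, and there the first ΔN library lay above the first WT library.

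**Figure D3:**
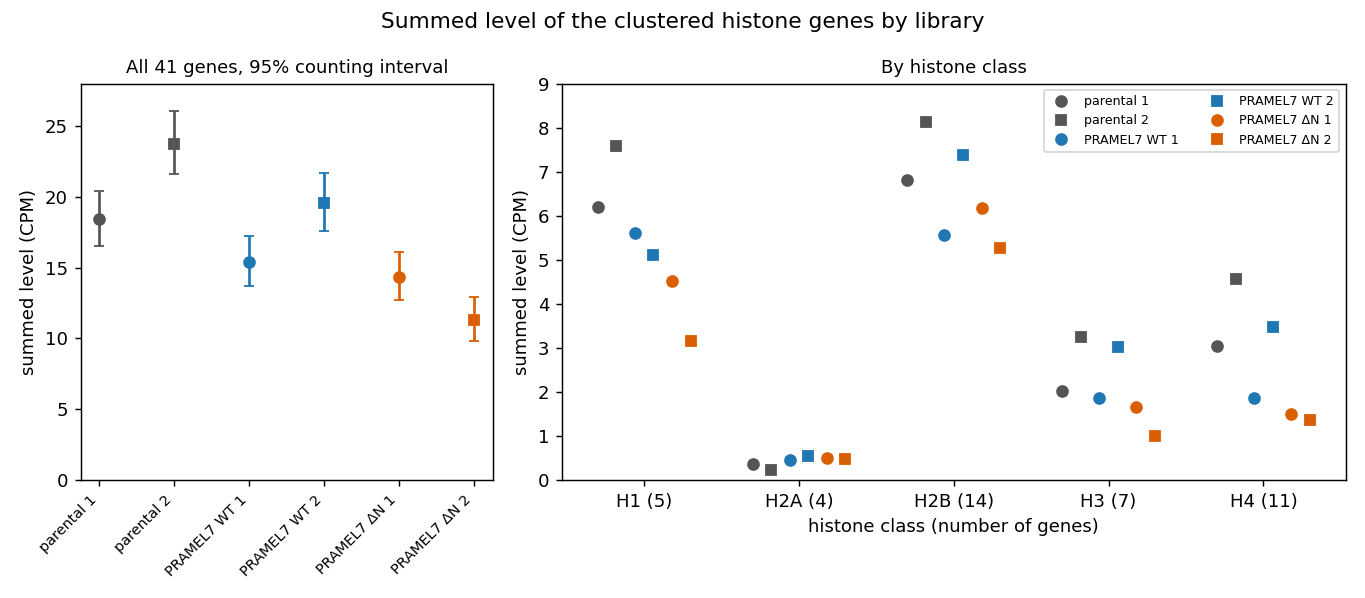
Summed level in CPM of all 41 clustered histone genes with exact 95% Poisson intervals (left) and of each histone class without intervals (right), by library; circles are replicate 1 and squares replicate 2. The ΔN libraries, at 14.4 and 11.3 CPM, are the lowest in the left panel, and the H2A class is near the bottom in every library.

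The core and linker classes did not stand equally far apart. H4 genes summed to 3.04 and 4.56 CPM in parental ESCs, 1.87 and 3.47 CPM in the WT line and 1.51 and 1.37 CPM in the ΔN line, a ratio of 0.379 for ΔN over parental. The ratio was 0.505 for H3, 0.557 for H1 and 0.766 for H2B. In H1, H2B, H3 and H4 both ΔN libraries lay below both parental libraries. In H3 this order rested on Hist1h3c, which held 87 of the 243 H3 reads. Without Hist1h3c the first ΔN library was no longer below the first parental library. H2A, with 49 reads in all, summed to 0.361 and 0.217 CPM in parental ESCs and 0.502 and 0.475 CPM in the ΔN line. Without Hist3h2a, which could meet the value rule only through the derived lines, the ΔN sums were 0.351 and 0.211 CPM and the parental ones were as before. Differences between the classes were not tested.

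Gene by gene, few of the 41 could be tested. Only 5 exceeded 1 CPM in at least 2 libraries, among 12914 genes that did, and 36 did not. Hist1h1a passed through both parental libraries and 1 WT library, and Hist1h2bj and Hist1h3c through 1 parental and 1 WT library each. All 3 stayed under 1 CPM in both ΔN libraries, so the filter itself favoured a lower ΔN value in them. In the limma fit over all genes, with Benjamini-Hochberg adjustment, the single call among the 15 tests was Hist1h1a lower in ESC + H/F-PRAMEL7 ΔN than in parental ESCs. Over all 12914 genes, 13.6% were called lower and 6.25% higher in that comparison, and 1 of 5 is read against that background. None of the 5 was called between WT and parental, where 16.3% of all genes were lower and 8.71% higher, or between WT and ΔN, where 10.9% were higher and 9.45% lower. At an unadjusted p under 0.05, 0 of 5 passed for WT against parental, 3 for ΔN against parental (Hist1h1a, Hist1h1c and Hist1h3c, all lower) and 2 for WT against ΔN (Hist1h1c and Hist1h3c, both higher in WT). At that level 25.4% of all genes were lower and 14.3% higher for WT against parental, 21.8% and 11.2% for ΔN against parental, and 17.6% and 17.8% for WT against ΔN. Both of these comparisons use the same ΔN libraries. With an unadjusted p under 0.05 and a log2 difference past 0.58, 2 of 5 passed for ΔN against parental (Hist1h1a and Hist1h3c, lower), 1 for WT against ΔN (Hist1h3c, higher) and 0 for WT against parental. All genes passed that rule in 9.17% lower and 3.14% higher, 5.24% and 7.19%, and 9.01% and 4.65% of cases, in the same order of comparisons. The median difference of the 5 genes from parental was −0.58 in the ΔN line, beside −0.06 over all genes, and −0.09 in the WT line, beside −0.08, on the log2(CPM + 1) scale. The first value is in part set by the filter, and over all 41 members without a filter the median was −0.14 for the ΔN line, beside −0.04. All 5 lie on chromosome 13, whose 448 tested genes had medians of −0.06 and −0.13.

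The linker histone genes, whose proteins bind the DNA entering and leaving the nucleosome, held the only call among the tested members. With no filter on level, Hist1h4d had a lower adjusted p for ΔN against parental (0.0725, limma) than Hist1h1a (0.102). Hist1h1a (H1.1, ENSMUSG00000049539, chr13:23763666-23764406, a single exon on the plus strand) had 30 and 47 reads in parental ESCs, 16 and 27 in the WT line and 13 and 15 in the ΔN line. That is 1.55 and 2.55 CPM, 0.810 and 1.49 CPM, and 0.652 and 0.792 CPM. All 4 libraries of the derived lines lay below both parental libraries, and the ΔN libraries below the WT ones. Hist1h1a fell by 0.81 ± 0.23 (SE) on the log2(CPM + 1) scale in the ΔN line (adjusted p = 0.0353, limma), a scale that understates change at such levels. The call was lost without a filter on level (adjusted p = 0.102), and without parental replicate 2 (0.123), ΔN replicate 1 (0.187) or ΔN replicate 2 (0.125). For the WT line the difference from parental was −0.50 ± 0.23 (adjusted p = 0.132) and without parental replicate 1 it was −0.74 (0.0302).

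Hist1h1c (H1.2, chr13:23738808-23740367, a single exon on the plus strand) had 65 and 61 reads in parental ESCs, 75 and 44 in the WT line and 45 and 30 in the ΔN line. In CPM the ΔN libraries were the lowest, but the second WT library (2.42 CPM, 44 reads) was only just above the first ΔN library (2.26 CPM, 45 reads). The difference of ΔN from parental was −0.58 ± 0.21 (adjusted p = 0.082), that of WT from parental −0.10 ± 0.21 (0.764) and that of WT from ΔN 0.48 ± 0.21 (0.131). Hist1h1b (H1.5) had 6 and 15, 7 and 6, and 7 and 9 reads in the same order, with the lines overlapping. Hist1h1d and Hist1h1e had 53 and 43 reads in all, and in Hist1h1d 17 of them came from the first ΔN library and 3 from the second.

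H2A and H2B form the dimers on the outer faces of the nucleosome. The 3 H2A members with the highest level per length had 21 reads (Hist1h2ae), 9 reads (Hist1h2ag) and 5 reads (Hist1h2ak) over the 6 libraries, too few for a comparison. Hist3h2a, on chromosome 11, had 0 and 0 reads in parental ESCs, 2 and 4 in the WT line and 3 and 5 in the ΔN line. A count of 0 allowed up to 0.155 and 0.163 CPM in the parental libraries, so no fold is given. Hist3h2a shares exon with Trim17 on the same strand, and with 0 in both parental libraries the value rule could keep it only if all 4 derived libraries were above 0, so its order is set by that rule.

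Hist1h2bc (chr13:23684199-23692908, plus strand, with an exon far downstream of the stem-loop) had more reads than any other member and showed no drop. It had 52 and 58 reads in parental ESCs, 40 and 63 in the WT line and 62 and 61 in the ΔN line, or 2.68 and 3.15, 2.02 and 3.47, and 3.11 and 3.22 CPM. The WT libraries spanned the values of both other lines. The difference from parental was 0.09 ± 0.21 for ΔN (adjusted p = 0.797) and −0.09 ± 0.21 for WT (0.784), and WT differed from ΔN by −0.18 ± 0.21 (0.568). Hist1h2bj, whose stem-loop lies 23 bases before its annotated end, had 7 and 19, 9 and 20, and 8 and 4 reads, with a difference of ΔN from parental of −0.35 ± 0.26 (0.378) and of WT from ΔN of 0.42 ± 0.26 (0.268). In parental ESCs and in the WT line its second library lay far above its first. Hist1h2bk had 16 and 10, 12 and 12, and 9 and 4 reads, and Hist1h2bb 6 and 10, 5 and 5, and 7 and 4.

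H3 and H4 make the central tetramer. Hist1h3c (chr13:23744973-23745602, a single exon on the minus strand) had 13 and 27 reads in parental ESCs, 17 and 20 in the WT line and 6 and 4 in the ΔN line. The WT libraries lay between the parental ones, and both ΔN libraries lay below all others. The difference of ΔN from parental was −0.69 ± 0.22 (adjusted p = 0.0546) and of WT from ΔN 0.66 ± 0.22 (0.0644), both just short of the threshold, while WT differed from parental by −0.04 ± 0.22 (0.918). With a pseudocount of 0.1 in place of 1 these adjusted p-values were 0.0318 and 0.0334. Hist1h3a had 8 and 14, 1 and 13, and 8 and 6 reads, and the first WT library held the lowest value of all 6. Hist1h3g had 3 and 5, 5 and 10, and 8 and 3.

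Among H4 genes, Hist1h4d (chr13:23581598-23582735, plus strand) had 16 and 20 reads in parental ESCs, 13 and 16 in the WT line and 6 and 8 in the ΔN line, 0.955 ± 0.183, 0.77 ± 0.158 and 0.362 ± 0.0857 CPM (SD, n = 2). Both ΔN libraries lay below the other 4. Hist1h4h had 6 and 13 reads in parental ESCs, 5 and 2 in the WT line and 2 and 0 in the ΔN line, so the lines stood in the order parental, WT, ΔN with the WT and ΔN lines meeting at 2 reads. Hist1h4i had 17 and 12, 11 and 21, and 11 and 11 reads, and its WT libraries lay on both sides of the parental ones. None of these passed the filter on level.

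**Figure D4:**
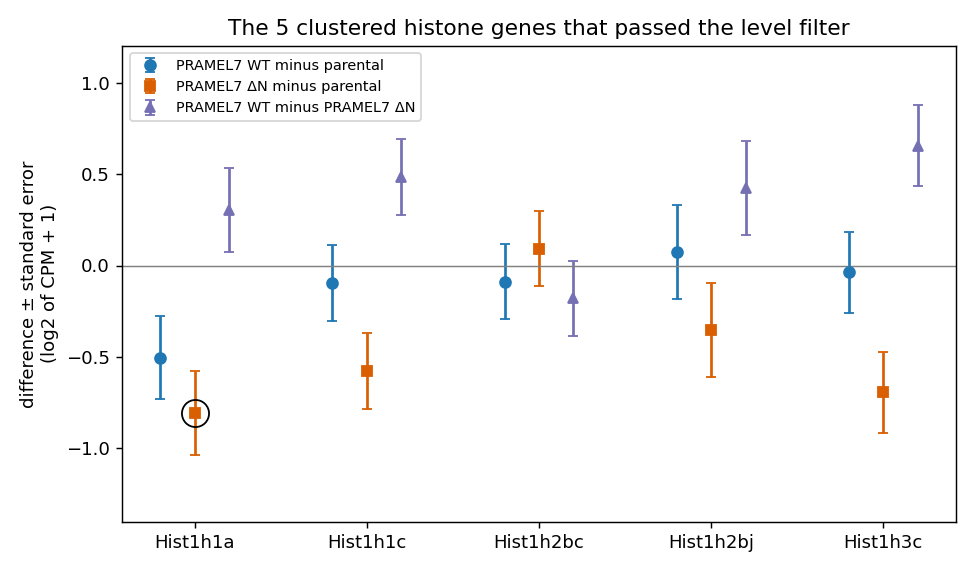
Difference between lines on the log2(CPM + 1) scale for the 5 clustered histone genes that passed the filter on level, with standard errors from the limma fit; circles are WT minus parental, squares ΔN minus parental and triangles WT minus ΔN. The ringed point, Hist1h1a at −0.81, is the only one with an adjusted p under 0.05, and Hist1h2bc lies near 0 in all 3 comparisons.

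All 41 genes can be described by whether libraries of 2 lines overlapped. In 18 members (43.9%) both ΔN libraries lay below both parental libraries, and in 1, Hist3h2a, above, as the value rule requires of it. Among the 18630 genes above 0 in at least 4 libraries, 33.3% were below and 18.9% above in that way. In 18 members the WT libraries lay above both ΔN libraries and in 3 below (Hist1h2be, Hist1h3h and Hist2h2be), against 30.0% and 30.3% of all such genes. WT and parental libraries separated in fewer members, with 8 lower (19.5%) and 3 higher (7.32%), against 35.6% and 21.2%. The background genes were not matched to the members for read number, so these shares do not show how close the lines are. Some of these separations rest on equal or nearly equal read numbers in libraries of unequal scaling. When the whole reads also had to differ, an alternative chosen after seeing the data, 13 members (31.7%) were lower in ΔN than in parental ESCs and 1 higher, against 27.4% and 17.7% of all genes. In WT against ΔN 10 (24.4%) were then higher and 2 lower, against 23.1% and 28.4%, and in WT against parental 8 lower and 2 higher, against 31.3% and 18.1%. The members' shares of 31.7% and 24.4% lay near the background. The ΔN libraries serve in 2 of these comparisons and the parental libraries in 2, so the counts are not separate evidence. By CPM, the 18 members lower in ΔN than in parental ESCs were 2 of 5 H1, 1 of 4 H2A, 5 of 14 H2B, 4 of 7 H3 and 6 of 11 H4 genes.

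Fits that kept the low genes gave few calls. With no filter on level, 0 of 41 members were called in any comparison, with a lowest adjusted p of 0.0725, while of all 24916 genes 4.81% were called lower and 1.99% higher for ΔN against parental, 5.12% and 2.49% for WT against parental, and 2.47% and 3.26% for WT against ΔN. At an unadjusted p under 0.05, 4 passed for WT against parental (3 lower), 10 for ΔN against parental (9 lower) and 5 for WT against ΔN (4 higher in WT). Over all 24916 genes of that fit, 16.1% were lower and 8.38% higher at this level for WT against parental, 14.6% and 7.09% for ΔN against parental, and 10.6% and 11.0% for WT against ΔN. With recovered reads, at least 10 per gene and limma's voom weights, 37 members were fitted and Hist1h1a alone was called, for ΔN against parental (adjusted p = 0.0488), where 10.1% of all 17589 genes were called lower and 4.43% higher. None was called for WT against parental, where 11.4% of all genes were lower and 6.19% higher, or for WT against ΔN, with 6.5% and 7.95%. At an unadjusted p under 0.05 the same fit had 9 members for ΔN against parental (8 lower), 1 for WT against parental (higher) and 4 for WT against ΔN (higher in WT). Of all genes, 19.0% were lower and 9.13% higher, 20.8% and 11.4%, and 14.1% and 14.8%, in that order. In that fit the 37 members had a median of −0.76 for ΔN against parental, beside −0.08 over all genes. For WT against parental their median was −0.22, beside −0.11. This alternative was chosen after seeing the data.

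The other histone genes of these libraries went both ways. Calls for named genes outside the clusters were fragile, and of 30 called differences, Pramel7 included, 26 were lost when at least 1 library was left out. The 13 replacement histone genes summed to 1822 and 2053 CPM in parental ESCs and 1893 and 2028 in the WT line. In the ΔN line they summed to 1599 and 1688 CPM. Of these 13 genes, 11 were tested. In ESC + H/F-PRAMEL7 ΔN, 4 were lower than in parental ESCs and 1 was higher (13.6% and 6.25% of all genes). In ESC + H/F-PRAMEL7 WT, 2 were lower and 3 higher (16.3% and 8.71%), and 4 were higher in WT than in ΔN with none lower (10.9% and 9.45%). H2afz (H2A.Z) had 519 and 618 CPM in parental ESCs, 585 and 624 in the WT line and 409 and 457 in the ΔN line, and fell by 0.39 in the ΔN line (adjusted p = 0.0287, limma). H2afz was 0.48 higher in WT than in ΔN (adjusted p = 0.0118).

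The pair of H3.3 genes differed from each other. H3f3a rose by 0.52 in the WT line (adjusted p = 0.00917) and was 0.50 higher in WT than in ΔN (0.0116), with a difference of 0.02 between ΔN and parental (0.926). H3f3b fell in both derived lines, by 0.51 in WT (0.00681) and by 0.54 in ΔN (0.00513). H2afx, whose mRNA can end at a stem-loop or in a poly(A) tail, rose in both, by 0.64 (0.00156) and 0.37 (0.0155), and H2afv fell in both, by 0.42 (0.0162) and 0.35 (0.0346). H3f3b and H2afv lie on chromosome 11, whose 1102 tested genes had medians of −0.36 in the WT line and −0.33 in the ΔN line, beside −0.08 and −0.06 over all genes. Its part in these differences was not tested.

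Of 22 genes for histone mRNA transcription and 3′ end processing, 1 was higher and 5 were lower in WT than in parental ESCs, and 0 were higher and 4 lower in the ΔN line. Of all genes, 8.71% and 16.3%, and 6.25% and 13.6%, were called in those directions. The 22 summed to 2783 and 2719 CPM in parental ESCs, 2721 and 2764 in the WT line and 2621 and 2660 in the ΔN line. Slbp, for the protein that binds the stem-loop, had 77.6 and 73.9 CPM in parental ESCs, 66.9 and 72.6 in the WT line and 83.1 and 91.0 in the ΔN line. Slbp differed by 0.20 between ΔN and parental (adjusted p = 0.183, limma) and by −0.31 between WT and ΔN (0.0439). Npat, the activator of histone gene transcription, fell by 0.38 in the WT line (0.0353) and differed by 0.06 in the ΔN line (0.73). Cstf3, of the cleavage stimulation factor, fell by 0.49 in the ΔN line (0.017). The other lower calls in the ΔN line were Lsm11 by 0.57 (0.017), Coil by 0.46 (0.00819) and Snrpg by 0.44 (0.0155). Snrpb, for the shared SmB protein, rose by 0.41 in the WT line (0.013). Cpsf3, the endonuclease that cuts histone pre-mRNA, fell by 0.27 in the WT line (0.0466). Casp8ap2, Snrpg and Coil were also called lower in the WT line, by 0.49 (0.0247), 0.55 (0.0059) and 0.31 (0.0365). Srrt (ARS2) was 0.27 higher in WT than in ΔN (0.0411).

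S phase genes and histone chaperones were counted and summed in the same way. The share of cells in S phase was not measured. Of 28, 5 were higher and 1 lower in the WT line, 4 higher and 1 lower in the ΔN line, and 1 higher and 1 lower in WT against ΔN. Over all genes the shares higher and lower were 8.71% and 16.3%, 6.25% and 13.6%, and 10.9% and 9.45%. Summed, they stood at 9488 and 8814 CPM in parental ESCs, 10255 and 9810 in the WT line and 10154 and 10294 in the ΔN line. Among the MCM helicase subunits, Mcm3, Mcm5 and Mcm7 rose in the WT line by 0.28, 0.29 and 0.28 (adjusted p = 0.0456, 0.0404 and 0.0374, limma). In the ΔN line Mcm4 rose by 0.29 (0.0477) and Mcm2, the only lower call, fell by 0.32 (0.0189). Rrm2, Ccne1 and Gins2 were also called higher in the ΔN line, by 0.61 (0.00263), 0.53 (0.00846) and 0.28 (0.0469).

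RNAs that lack a poly(A) tail were also summed in each library. The 164 small nucleolar, small nuclear and similar RNAs in the table summed to 25.3 and 24.4 CPM in parental ESCs, 24.1 and 29.7 in the WT line and 29.5 and 27.6 in the ΔN line, so the ΔN libraries were above the parental ones here and below them for the clustered histone genes. Only 12 were tested. None was called in the WT line against parental or against ΔN. In the ΔN line Snora20 rose by 0.99 (adjusted p = 0.0275), Snora41 rose by 0.76 (0.026) and Snord104 fell by 0.63 (0.0362). Many of these RNAs lie inside introns of other genes, whose pre-mRNA could give their reads. The sum therefore does not measure how much RNA without a tail each library held. The part that polyA enrichment had in the difference of the clustered histone genes was not tested.

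**Figure D5:**
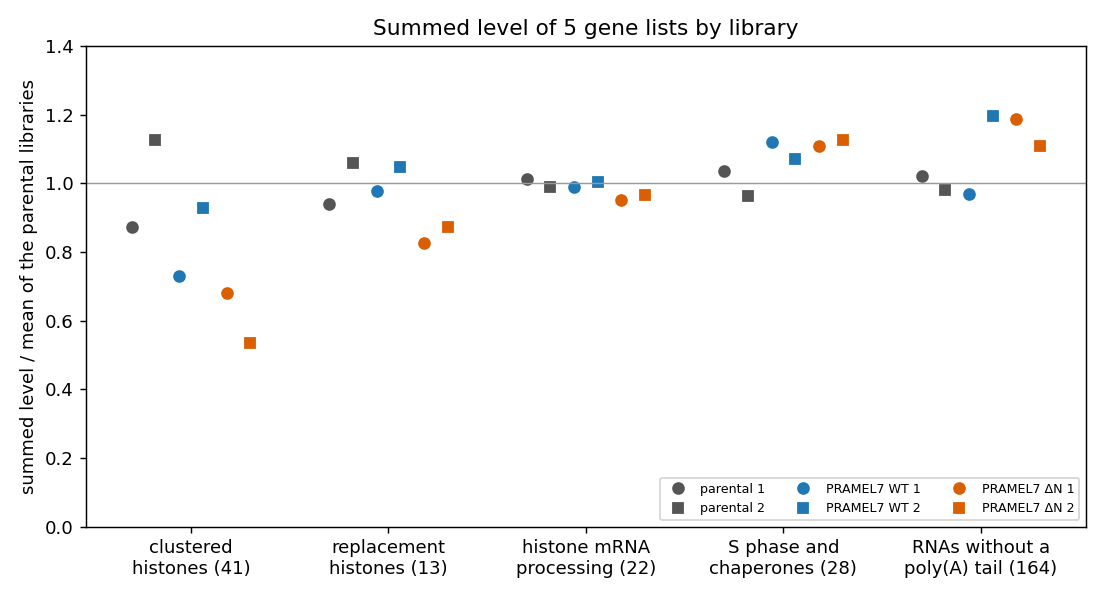
Summed level of 5 gene lists in each library divided by the mean of the parental libraries; circles are replicate 1, squares replicate 2, and numbers of genes stand in parentheses. In parental ESCs the clustered histone genes spread most between replicates (18.4 and 23.8 CPM). Their ΔN libraries are the lowest, as they also are for replacement histones and histone mRNA processing genes. The ΔN libraries lie at or above 1 for S phase genes and RNAs without a poly(A) tail.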

How the data were processed

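RNA was polyA-enriched and sequenced as single reads of 100 bases with an unstranded kit. The authors filtered rRNA, mapped to mm10 and deposited RPKM values with their own scaling between libraries. The methods name STAR, whereas the submitters' processing notes name Subread 1.4.6-p4. The deposited RPKM values matched whole reads divided by the gene span, not by exon length: 97.8% to 98.2% of values up to 20 reads came within 0.1 of a whole number (18.2% to 20.2% with exon length). RPKM was therefore multiplied by the span (GENCODE vM21, GRCm38) to give CPM. Of 50978 rows, 47940 genes were used; 176 repeated or date-like names, 2796 unmatched and 66 ambiguous rows were left out. The authors' tables of comparisons (fold changes and p-values) and the ChIP samples were not used. Differences on the log2(CPM + 1) scale came from limma 3.58.1 (trend) in R 4.3.3, for genes that exceeded 1 CPM in 2 or more libraries, with the 3 lines in 1 fit and calls at an adjusted p under 0.05. Members and lists were chosen with earlier results of these data known. Named were members called in a comparison, the 3 members per class highest in deposited RPKM, and called genes of the other lists. Of those lists at most 5 genes each were taken, by highest mean CPM, with Slbp, Npat, H2afz, H3f3a, H3f3b and Pramel7 in any case. Hist1h2bc, Hist1h1d, Hist1h1e, Hist3h2a, Hist4h4, Hist1h4b and the members listed by overlap were named after their values were seen. Alternatives changed the pseudocount, filter, scaling, weights, pairing and libraries used.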

Additional observations from a re-analysis of the deposited data

How the results depend on the processing

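Of the 41 genes, 36 fell to the filter on level, and calls among the 5 tested were not firm. For ΔN against parental ESCs, 1 gene was called lower, and 2 with a pseudocount of 0.1, with voom on whole reads or at an unadjusted p under 0.05 with a log2 difference past 0.58, 0 with no filter on level and 0 to 2 when each library was left out in turn. It was 0 without parental replicate 2, ΔN replicate 1 or ΔN replicate 2. For WT against ΔN, 0 genes were called higher, and 1 (Hist1h3c) with a pseudocount of 0.1, with voom on whole reads, with only the compared lines, at the unadjusted threshold and, over libraries left out, 0 to 1. For WT against parental, 0 were called lower, and 0 to 1 over libraries left out. The median difference of the tested members for ΔN against parental, −0.578, was −0.87 and −0.204 with pseudocounts of 0.1 and 5, −0.138 with no filter on level, −0.989 with voom on whole reads, −0.757 with voom and at least 10 reads, and −0.744 to −0.41 over libraries left out. For WT against ΔN, 0.425 became 0.654, 0.121, 0.067 and 0.68 under the first 4 of these, and 0.0729 to 0.531 over libraries left out. For WT against parental, −0.0879 ranged from −0.369 to 0.0503 over libraries left out. Fits with no filter or with at least 10 reads hold more members. Counted in CPM and in whole reads together, members higher in both WT than in both ΔN libraries numbered 10 in place of 18, those lower 2 in place of 3, and those lower in ΔN than in parental ESCs 13 in place of 18; members higher in WT than in parental ESCs numbered 2 in place of 3. The H2A ratio of ΔN over parental, 1.69, was 0.973 without Hist3h2a. The cause of the other changes was not tested. The ratio of sums kept its direction throughout, at 0.536 to 0.696 (ΔN over parental), 0.73 to 0.948 (WT over parental) and 1.20 to 1.55 (WT over ΔN) over libraries left out.

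Differences of single genes that were not called changed direction as follows. With median-ratio scaling Hist1h3c stood at 0.00705 for WT against parental. Over libraries left out, WT against parental ran from −0.0324 to 0.221 for H2afz, −0.34 to 0.147 for Hist1h1c, −0.369 to 0.194 for Hist1h2bc, −0.215 to 0.338 for Hist1h2bj, −0.318 to 0.0503 for Hist1h3c, −0.0201 to 0.171 for Mcm4, −0.021 to 0.856 for Snora20 and −0.0724 to 0.367 for Snora41. ΔN against parental ran from −0.129 to 0.168 for H3f3a, −0.0565 to 0.185 for Npat and −0.0358 to 0.146 for Snrpb. WT against ΔN ran from −0.0781 to 0.143 for H3f3b, −0.462 to 0.101 for Hist1h2bc, −0.00614 to 0.11 for Mcm5 and −0.0301 to 0.0852 for Mcm7. The differences of replicate 1 from replicate 2 were correlated between lines over genes. The values were 0.207 for parental and WT, −0.25 for parental and ΔN and −0.103 for WT and ΔN. Whether same-numbered libraries were handled together cannot be told from these values. With the replicate number as a block, 1 member was called, Hist1h1a lower in ΔN (adjusted p = 0.0278), and no member changed its call. Outside the clusters, the 4 of 30 called differences of named genes that were kept under every alternative were H2afx higher in WT than in parental ESCs and Pramel7 in its 3 comparisons. The block lost 7, median-ratio scaling 5 and no filter on level 18.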
